A study of Homo sapiens with 6 samples.

Results

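The pericentromeric heterochromatin of chromosomes 1, 2, 9, 10 and 16 was taken as all consensus peaks of nascent DNA whose midpoint lay in 8 blocks beside the centromeres (hg38): 1q (chr1:125100001-150000000), 2p (chr2:86000001-91800000), 2q (chr2:94700001-98000000), 9p (chr9:38000001-42900000), 9q (chr9:45600001-69000000), 10q (chr10:41900001-48000000), 16p (chr16:31000001-35200000) and 16q (chr16:38400001-47000000). The blocks held 627 of the 18840 peaks of both lists, 328 of 10285 in the control list and 299 of 8555 in the ERCC6L2-/- list. The 6 samples were human U2OS osteosarcoma cells, 3 control samples (genotype labelled WT) and 3 ERCC6L2-/- samples, all pulsed for 2 h with the thymidine analogue BrdU before the labelled DNA was immunoprecipitated and sequenced. ERCC6L2 is a SNF2-family ATPase, and the study made its knockout lines with CRISPR/Cas9 from single cells, so a line is 1 clone. The clone used is not given in the sources used here. Each list merged the 3 replicates of a genotype, so neither the spread between replicates nor the read depth is known here, and the tests below compare 2 lists of peaks and not 2 conditions. A peak was shared if it overlapped a peak of the other list by at least 1 base, and list-specific (control-specific or ERCC6L2-/- -specific) if it did not. Scores below are -log10 values of merged p-values, and those too large to store stand at a ceiling.

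Pericentromeric heterochromatin is the compact, gene-poor and mostly late-replicating DNA that flanks the alpha-satellite of the centromere. On these chromosomes it is built largely from human satellites 2 and 3, tandem arrays derived from the word GAATG, which reads CATTC on the other strand, and it passes outward into segmental duplications, long stretches copied almost exactly between places. The arrays are too repetitive to assemble fully in hg38, so much of this DNA is a gap in the reference and a read from it can align to another copy. The blocks were set by coordinates and not by chromatin state. Of their 37 Mb of assembled bases, 612 kb were satellite by the threshold given below, with 0 kb in 2q and 9p and 1 kb in 9q. Most of the assembled part is other sequence, with protein-coding genes in it.

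The sequences on which the comparisons turned are shown first, 5' to 3' on the reference strand. The first 4 lines come from satellite peaks that were present in both lists, with GAATG and CATTC words in capitals. They are the centre of the control peak richest in these words and of the widest satellite peaks of 1q, 16q and 10q.
2p, shared, chr2:89838475-89838624: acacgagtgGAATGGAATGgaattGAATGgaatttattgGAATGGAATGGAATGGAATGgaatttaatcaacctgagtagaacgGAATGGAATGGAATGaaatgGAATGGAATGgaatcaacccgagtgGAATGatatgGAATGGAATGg
1q, shared, chr1:125151870-125152019: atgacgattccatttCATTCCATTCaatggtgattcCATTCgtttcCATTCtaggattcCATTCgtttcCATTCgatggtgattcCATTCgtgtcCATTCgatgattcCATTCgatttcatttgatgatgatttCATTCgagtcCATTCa
16q, shared, chr16:46417448-46417597: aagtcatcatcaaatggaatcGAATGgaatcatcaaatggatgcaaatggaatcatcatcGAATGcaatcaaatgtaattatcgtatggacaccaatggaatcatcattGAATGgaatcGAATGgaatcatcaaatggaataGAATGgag
10q, shared, chr10:42305176-42305325: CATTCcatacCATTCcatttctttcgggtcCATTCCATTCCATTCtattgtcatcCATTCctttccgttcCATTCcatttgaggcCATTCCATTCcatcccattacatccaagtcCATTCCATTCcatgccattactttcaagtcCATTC
The 2p and 10q lines have runs of the bare word, whereas in the 1q and 16q lines the words are set further apart.

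The next lines show what was found in list-specific peaks. A tandem repeat that was rich in G and C held 6 of the 9 ERCC6L2-/- -specific peaks of 2p, and a repeat rich in A and T held control-specific peaks of 1q, 2p, 9q and 16p. Capitals mark bases equal to the base 26 positions before (G and C) or 13 positions before (A and T).
GC-rich repeat, 2p, ERCC6L2-/- -specific, chr2:90297559-90297688: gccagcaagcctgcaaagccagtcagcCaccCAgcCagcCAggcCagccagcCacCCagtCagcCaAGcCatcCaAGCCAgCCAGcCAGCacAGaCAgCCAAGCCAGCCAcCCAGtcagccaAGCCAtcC
AT-rich repeat, 1q, control-specific, chr1:144329427-144329556: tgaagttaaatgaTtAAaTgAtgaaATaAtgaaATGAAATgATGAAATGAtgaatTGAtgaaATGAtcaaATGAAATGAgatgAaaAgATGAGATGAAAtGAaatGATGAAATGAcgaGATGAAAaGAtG
The last line holds alpha-satellite of 9q from an ERCC6L2-/- -specific peak, with its CENP-B box, the binding site of centromere protein B, in capitals.
CENP-B box, 9q, ERCC6L2-/- -specific, chr9:60562874-60563044: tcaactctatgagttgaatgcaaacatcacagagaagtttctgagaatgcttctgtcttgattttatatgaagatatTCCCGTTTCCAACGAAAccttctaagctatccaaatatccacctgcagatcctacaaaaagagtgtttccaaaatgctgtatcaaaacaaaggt

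Peaks were dense in the blocks in both lists. The blocks span 81.2 Mb, of which 44.2 Mb are unknown bases in hg38, and the 37 Mb that are assembled are 1.26% of the assembled bases of chromosomes 1 to 22, X and Y. They held 3.19% of the control peaks and 3.50% of the ERCC6L2-/- peaks, or 8.86 and 8.07 peaks per assembled Mb against 3.23 and 2.66 in the remainder of these chromosomes. The control peaks of the blocks covered 612 kb and the ERCC6L2-/- peaks 551 kb, and 73.2% of the bases covered by either list were covered by both. At the borders that face the chromosome arms, the control list had 29 peaks in the last 1 Mb inside and 25 in the first 1 Mb outside the borders, and the ERCC6L2-/- list had 31 and 16.

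Fewer peaks were list-specific in the blocks than elsewhere in the control list, but only through the satellite peaks defined below (3 of 104 list-specific). Of the other peaks of the blocks, 79 of 224 control (35.3%) and 41 of 189 ERCC6L2-/- peaks (21.7%) were list-specific. Of all control peaks 32.8% were control-specific, and in the blocks this was 82 of 328 (25%, 95% Wilson interval 20.6 to 29.96%) against 3289 of 9957 outside (33%, 32.1 to 34%; two-sided Fisher's exact test p = 0.00225, adjusted p = 0.00562 over 10 tests). Of all ERCC6L2-/- peaks 18.9% were ERCC6L2-/- -specific, and in the blocks this was 44 of 299 (14.7%, 11.1 to 19.2%) against 1570 of 8256 outside (19%, 18.2 to 19.9%), a difference of -4.30 percentage points that did not pass the test (Fisher's exact p = 0.0705, adjusted p = 0.141). This call was not stable: of 13 alternatives 6 passed with the same sign, down to -6.13 points at the score ceiling (Fisher's exact p = 0.00184), and 3 turned the sign, at 0.106 points with 50% reciprocal overlap, 1.66 with neighbours chained and 1.59 with near copies counted once. Against only those outside peaks that were not in alpha-satellite, 1158 of 7418, the difference was -0.895 points (Fisher's exact p = 0.745). The ERCC6L2-/- list supplied 44 of the 126 list-specific peaks of the blocks (34.9%, 27.2 to 43.6%) and 1570 of 4859 outside (32.3%, 31 to 33.6%; Fisher's exact p = 0.563, adjusted p = 0.636). The control difference did not pass in 2 alternatives. Without chromosome 16 it was -4.95 points (Fisher's exact p = 0.105), and with peaks of a class chained at 10 kb counted once it was -0.0224 points (p = 1).

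Counts varied between the blocks, and differences between blocks were not tested. In 1q, 49 control peaks (15 specific) stood against 41 ERCC6L2-/- peaks (5 specific). In 2p there were 46 (10) and 48 (9), and in 10q 57 (11) and 57 (9), so that the list-specific peaks of these 2 blocks were close to equal in number. In 2q there were 23 (11) and 16 (4), in 9p 21 (7) and 17 (3), in 9q 57 (18) and 49 (9) and in 16p 64 (10) and 60 (5), with about 2 or more control-specific peaks for each ERCC6L2-/- -specific one. The whole lists had a similar excess, with 3371 control-specific and 1614 ERCC6L2-/- -specific peaks. In 16q each list had 11 peaks and none was list-specific, which allows a share of up to 27.3%. The 16p and 16q blocks were the densest, with 16 and 17.8 control peaks and 15 and 17.8 ERCC6L2-/- peaks per assembled Mb, and 9p the sparsest, with 4.29 and 3.47.

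**Figure D1:**
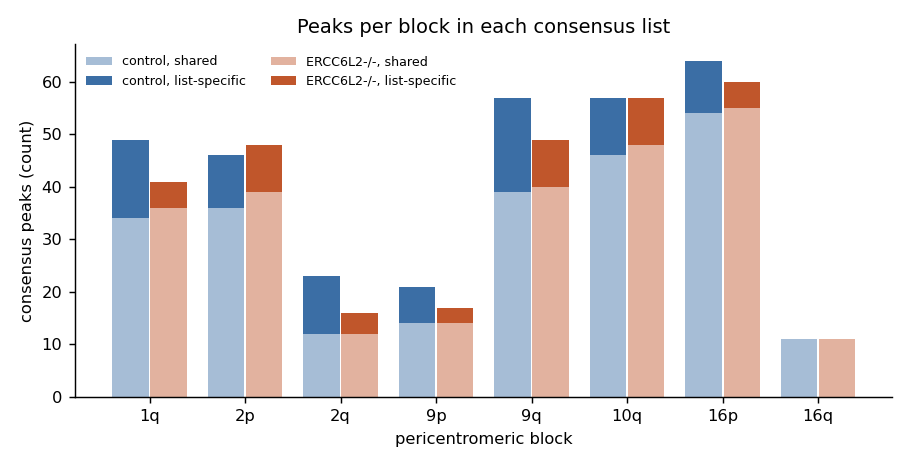
Consensus peaks (count) in each of the 8 pericentromeric blocks. For each block the left bar is the control list and the right bar the ERCC6L2-/- list, with shared peaks pale and list-specific peaks dark. List-specific peaks run from 0 in 16q to 18 (control) and 9 (ERCC6L2-/-) in 9q.

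The satellite arrays were labelled in both lists, and nearly all of their peaks overlapped a peak of the other list by at least 1 base. A peak was called satellite if at least 15% of its bases lay in GAATG or CATTC words. The share was below 10% in 406 of the 627 peaks and above 15% in 214, with 7 in between. Satellite peaks numbered 104 (31.7%) among control and 110 (36.8%) among ERCC6L2-/- peaks, against 4.04% and 4.68% of the peaks outside the blocks. By block they were 20 and 22 in 1q, 18 and 20 in 2p, 14 and 16 in 10q, 43 and 44 in 16p and 8 and 8 in 16q. A single control peak was found in 9q, and none in 2q and 9p. In 1 kb windows by the same threshold, satellite made up 612 kb of the blocks, 21.7% of the 2820 kb found on chromosomes 1 to 22, X and Y, where 0.0960% of windows passed.

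Of the 104 control satellite peaks 3 were list-specific (2.88%, Wilson interval 0.986 to 8.14%) against 79 of 224 other control peaks of the blocks (35.3%, 29.3 to 41.7%; Fisher's exact p = 3.00e-12, adjusted p = 3.00e-11). Of the 110 ERCC6L2-/- satellite peaks 3 were list-specific (2.73%, 0.932 to 7.71%) against 41 of 189 others (21.7%, 16.4 to 28.1%; Fisher's exact p = 2.19e-06, adjusted p = 1.09e-05). Satellite peaks were wide, with a median of 3089 bases in the control and 2834 in the ERCC6L2-/- list against 668 and 688 for the others. Control peaks also covered 63.4% and ERCC6L2-/- peaks 59.3% of satellite windows. A wide peak there was likely to meet the other list by 1 base, so the tests cannot separate sharing from this density. With 50% reciprocal overlap, 6 of 104 satellite and 88 of 224 other control peaks were list-specific, and 12 of 110 and 53 of 189 ERCC6L2-/- peaks. Among peaks of 1 kb or more, 2 of 96 satellite and 13 of 62 other control peaks were list-specific, and 0 of 94 (a share of up to 3.19%) and 8 of 54 in the ERCC6L2-/- list. The satellite peaks lay in few runs, and neighbouring peaks of a run are not independent. With control peaks of a class chained at 10 kb counted once, 3 of 24 satellite units and 76 of 201 others were list-specific (Fisher's exact p = 0.0131). In the ERCC6L2-/- list they were 3 of 24 and 37 of 163 (Fisher's exact p = 0.423). With satellite called at 25% of bases in words, 1 of 13 control and 0 of 15 ERCC6L2-/- satellite peaks were list-specific, and neither difference passed (Fisher's exact p = 0.198 and 0.139). Outside the blocks 33 of 398 control satellite peaks (8.29%) and 7 of 382 ERCC6L2-/- satellite peaks (1.83%) were list-specific.

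**Figure D2:**
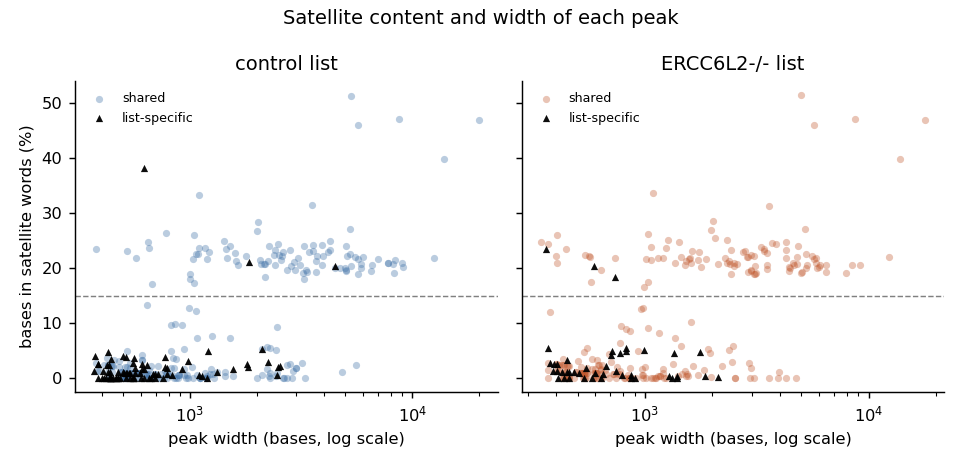
Width (bases, log scale) and share of bases in GAATG or CATTC words (%) of each peak of the blocks, control list at left and ERCC6L2-/- list at right. Circles are shared peaks, black triangles list-specific peaks and the dashed line the 15% limit; 3 triangles lie above it in each list.

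The 3 widest shared peaks were satellite in both lists. On 10q the control peak at chr10:42295313-42315189 spanned 19877 bases and the ERCC6L2-/- peak at chr10:42297239-42315149 17911 bases, both within an intron of the lncRNA ENSG00000291065, with 46.9% of bases in the words in each. On 2p, outside any annotated gene, a pair at chr2:89811463-89825322 and chr2:89811442-89825298 spanned 13860 and 13857 bases, and a pair at chr2:91403328-91415838 and chr2:91403536-91415846 spanned 12511 and 12311 bases. The pair of 13860 and 13857 bases had nearly the same ends in both lists. The richest in words was again on 2p, chr2:89835907-89841193 in the control list with 51.3% and chr2:89836192-89841192 in the ERCC6L2-/- list with 51.5%, with runs of up to 14 words. All these peaks scored at the ceiling, the largest score that the lists can hold.

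The arrays had distinct periods. Of the control satellite peaks 102 of 104 matched themselves at 50% or more of bases when shifted, the best shift being 49 bases in 54 peaks, 26 in 38 and 5 in 6, and for the ERCC6L2-/- list these were 107 of 110, with 57, 41 and 6. In 16q the words were nearly all GAATG on the reference strand (1022 against 3 CATTC in control peaks, 971 against 2 in ERCC6L2-/- peaks). In 16p CATTC was in excess (5243 against 1915 and 4726 against 1931), as it was in 2p (3083 against 1467 and 2944 against 1422). In 1q the strands were nearer to even, with 1642 GAATG and 1401 CATTC words in the control list and 1592 and 1335 in the ERCC6L2-/- list. No satellite peak of the blocks held a purine tract of 30 bases, and 2 in each list overlapped an annotated gene. Their 50-base words had a median of 1 copy in the reference, but copies in the gaps cannot be counted.

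Control peaks covered 63.4% of the 612 kb of satellite windows, ERCC6L2-/- peaks 59.3%, both lists 57.4% and neither list 34.7%. The control share was the higher in each block with over 1 kb of satellite: 51.9% against 49.6% in 1q, 69% against 65.6% in 2p, 61.3% against 55.9% in 10q, 68.6% against 63.8% in 16p and 58% against 54.7% in 16q. At 99 satellite loci where peaks of both lists overlapped, the ERCC6L2-/- peaks covered fewer bases at 69 and more at 29, with a median ratio of ERCC6L2-/- to control bases of 0.984 (quartiles 0.879 and 1.01). The 144 other shared loci of the blocks gave 101 and 43, with a median ratio of 0.942, and the 6629 shared loci outside the blocks 4465 and 2124, with a median of 0.966. A slightly smaller covered length in the ERCC6L2-/- list was found in the blocks and outside them.

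**Figure D3:**
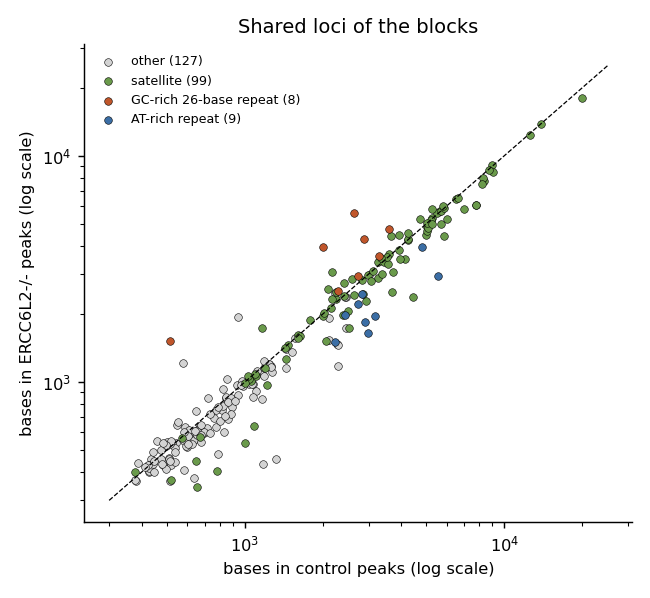
Bases in control peaks against bases in ERCC6L2-/- peaks (both log scales) at the shared loci of the blocks, 99 satellite loci, 8 of the GC-rich repeat, 9 of the AT-rich repeat and 127 others. The dashed line marks equal lengths; satellite loci follow it, all 8 GC-rich loci, 1 of them by its ERCC6L2-/- peak only, lie above it and all 9 AT-rich loci below it.

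Of the 6 list-specific satellite peaks 5 lay within or beside arrays that had other peaks in both lists, the exception being on 9q. In the control list they were chr2:91417124-91418965 (1842 bases, score 260), chr16:34950592-34955072 (4481 bases, score 287) and chr9:65425121-65425739 (619 bases, score 138), the only satellite peak of 9q. In the ERCC6L2-/- list they were chr2:90383507-90384097 (591 bases, score 213), chr10:42072626-42072986 (361 bases, score 285) and chr16:34752541-34753273 (733 bases, score 88.6). None overlapped an annotated gene and none reached the score ceiling, which 93 of 101 shared control and 96 of 107 shared ERCC6L2-/- satellite peaks did. Satellite made up 3 of 44 ERCC6L2-/- -specific and 3 of 82 control-specific peaks (6.82%, 2.35 to 18.2%, against 3.66%, 1.25 to 10.2%; Fisher's exact p = 0.420, adjusted p = 0.600). With sharing defined by 50% reciprocal overlap these were 12 of 65 and 6 of 94, and the difference of 12.1 points passed unadjusted (Fisher's exact p = 0.0227). The 2p control peak was covered at 95% identity or more, over 100% of its length, by the wide ERCC6L2-/- peak at chr2:91403536-91415846, and the 10q ERCC6L2-/- peak by a control peak at chr10:42068951-42071876.

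Satellite peaks clustered at the edges of the reference. Within 100 kb of a gap of at least 10 kb lay 70.2% of the control and 70% of the ERCC6L2-/- satellite peaks, while 14.8% of the assembled bases of the blocks lay there. For all peaks the shares were 43.1% of shared and 19.5% of specific control peaks (Wilson intervals 37.1 to 49.3% and 12.4 to 29.4%), and 43.5% of shared and 25% of specific ERCC6L2-/- peaks (37.6 to 49.7% and 14.6 to 39.4%). The largest gaps were 18 Mb in 1q (chr1:125184588-143184587), 14.9 Mb in 9q and 7.98 Mb in 16q. Any peaks in that missing DNA cannot be seen.

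A tandem repeat of 26 bases that is rich in G and C covered more bases in the ERCC6L2-/- list at each of its loci in the blocks, though not at each locus outside them. It was recognised after the peaks were seen, as peaks with at least 60% GC in which at least 60% of bases equalled the base 26 positions before, so its values are a description without a test. The control list held 8 such peaks, none list-specific (a share of up to 37.5%), and the ERCC6L2-/- list 15, of which 6 were list-specific. Peaks of either list that overlapped them were joined into 14 loci, 12 on 2p and 1 each on 1q and 16p, none overlapping an annotated gene. At 7 loci peaks of both lists met the definition and the ERCC6L2-/- bases were more at each, at 6 only the ERCC6L2-/- list had a peak, and at 1 only the ERCC6L2-/- peak met it, so that this locus was counted through the list in which it was larger. Together the peaks that met it covered 19.4 kb in the control and 37.6 kb in the ERCC6L2-/- list.

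The 2p loci fell in 3 places. Between chr2:87396034 and chr2:87430126 the first locus had 2295 control and 2525 ERCC6L2-/- bases, the third 2004 and 3936, and the other 3 had ERCC6L2-/- peaks alone, at chr2:87406027-87407353 (1327 bases, score at the ceiling), chr2:87421062-87421965 (904 bases) and chr2:87428005-87430126 (2122 bases, the widest ERCC6L2-/- -specific peak). These last 3 were also the second largest cluster of list-specific peaks in the ERCC6L2-/- list. Next to the 1 Mb gap at chr2:90402512-91402511, the locus at chr2:90288154-90292912 had 3603 and 4745 bases and that at chr2:90296696-90298552 0 and 1857. Beyond the gap, the locus at chr2:91514413-91520437 had 2629 and 5602 bases, that at chr2:91524532-91528806 2869 and 4275, and 2 loci between chr2:91508863 and chr2:91511463 had ERCC6L2-/- peaks of 1388 and 869 bases alone. The locus at chr2:91497954-91499577, the one where the control peak (43.5% GC) did not meet the definition and the ERCC6L2-/- peak (60.9% GC) did, had 515 and 1520 bases. On 1q and 16p the differences were small, with 2737 against 2950 bases and 3296 against 3597.

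A repeat rich in A and T went the other way at each of its loci in the blocks. It was recognised in the same manner, as peaks with under 33% GC, under 15% of bases in satellite words and at least 60% of bases equal to the base 5 or 13 positions before. The control list held 16 such peaks, 7 of them list-specific, and the ERCC6L2-/- list 10, none list-specific (a share of up to 30%). Of 16 loci, 9 had peaks in both lists that met the definition, with more control bases at each, and 7 had a control peak alone. Together they covered 44.6 kb in the control and 20.5 kb in the ERCC6L2-/- list. On 9p the locus at chr9:40595555-40601126 had 5572 control and 2934 ERCC6L2-/- bases, and on 2p that at chr2:87360730-87365544 had 4815 and 3963. Control peaks alone were found at chr1:143502098-143503909, chr1:144328229-144330755, chr2:91558347-91560806, chr9:64722850-64725330, chr9:65207869-65210100, chr16:32120072-32121635 and chr16:33063236-33065053. The peaks at chr1:144328229 and chr9:64722850, with 2527 and 2481 bases, were the widest control-specific peaks outside satellite. Both 16p peaks lay in introns of lncRNAs (ENSG00000291276 at the first, ENSG00000260141 and ENSG00000291267 at the second).

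**Figure D4:**
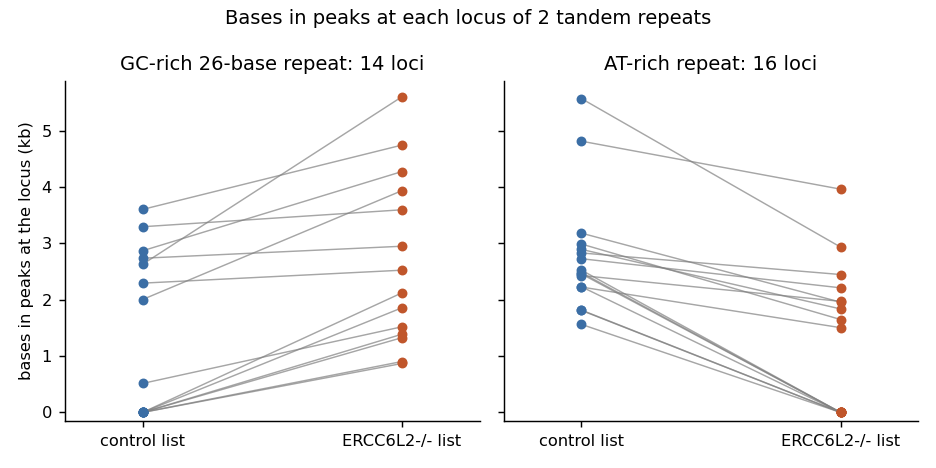
Bases in peaks (kb) at each locus of the GC-rich repeat (14 loci, left) and the AT-rich repeat (16 loci, right) in the control and the ERCC6L2-/- list. Each line joins the values of 1 locus; all lines rise at left, where at 1 locus only the ERCC6L2-/- peak met the definition, and all fall at right.

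Base composition moved with list membership outside the blocks too, and its part in these differences was not tested. Under 33% GC, 17 of 37 control and 0 of 20 ERCC6L2-/- peaks (a share of up to 15%) outside the blocks were list-specific, and at 60% GC or more 139 of 609 (22.8%) and 187 of 681 (27.5%), while between 40 and 50% GC they were 1669 of 4309 (38.7%) and 407 of 2973 (13.7%). Between 33 and 40% GC they were 325 of 1250 (26%) and 530 of 1450 (36.6%). The AT-rich repeat outside the blocks had 19 control peaks, 11 list-specific, and 8 ERCC6L2-/- peaks, none list-specific, and at its 19 loci the control bases were more at each. These peaks are among those under 33% GC. Without the 2 repeats, 6 of 18 control and 0 of 12 ERCC6L2-/- peaks under 33% GC outside the blocks were list-specific. Their 11 shared loci had a median ratio of ERCC6L2-/- to control bases of 0.997, with more ERCC6L2-/- bases at 5. The GC-rich repeat outside the blocks had 19 peaks in each list, 2 list-specific in each, and of 21 loci 13 shared ones had more ERCC6L2-/- bases and 4 more control bases, with 2 found in each list alone. In the blocks, without these repeats, 4 shared loci had 60% GC or more, with a median ratio of 1.05. Outside the blocks 454 such loci had a median ratio of 0.989, with more ERCC6L2-/- bases at 199 of them. The files hold no reads, so the GC content of the libraries is not known here.

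Purine tracts set the 2 kinds of list-specific peak apart. Tracts were stretches of 30 bases or longer of purines alone or of pyrimidines alone, and 3.71% of 600-base windows of the blocks hold one. Tracts were found in 37 of 82 control-specific peaks (45.1%, 34.8 to 55.9%) and 5 of 44 ERCC6L2-/- -specific peaks (11.4%, 4.95 to 24%; Fisher's exact p = 0.000127, adjusted p = 0.000422). The shared peaks had 33 of 246 in the control and 32 of 255 in the ERCC6L2-/- list (13.4% and 12.5%). Satellite peaks, which were many among the shared ones, held no tract, and without them tracts were in 22.8% of shared and 46.8% of specific control peaks and in 21.6% of shared and 12.2% of specific ERCC6L2-/- peaks. Tracts of 50 bases or more were in 26 control-specific peaks (31.7%) and 1 ERCC6L2-/- -specific peak (2.27%). The lead of the control list was also present outside the blocks, with tracts in 42.8% of control-specific and 17% of ERCC6L2-/- -specific peaks.

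By block the control-specific peaks with a tract were 10 of 15 in 1q, 3 of 10 in 2p, 5 of 11 in 2q, 3 of 7 in 9p, 6 of 18 in 9q, 5 of 11 in 10q and 5 of 10 in 16p, so each block with control-specific peaks had some. The ERCC6L2-/- -specific ones were 2 of 5 in 1q, 2 of 4 in 2q and 1 of 9 in 9q, with none in the other blocks. The longest in an ERCC6L2-/- -specific peak was 150 bases, at chr2:96658893-96659438 (score 94.6) in an intron of FER1L5, a gene of the ferlin family of membrane proteins. Of the 37 control-specific peaks with a tract, 17 overlapped an annotated gene and 11 were in single-copy DNA.

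**Figure D5:**
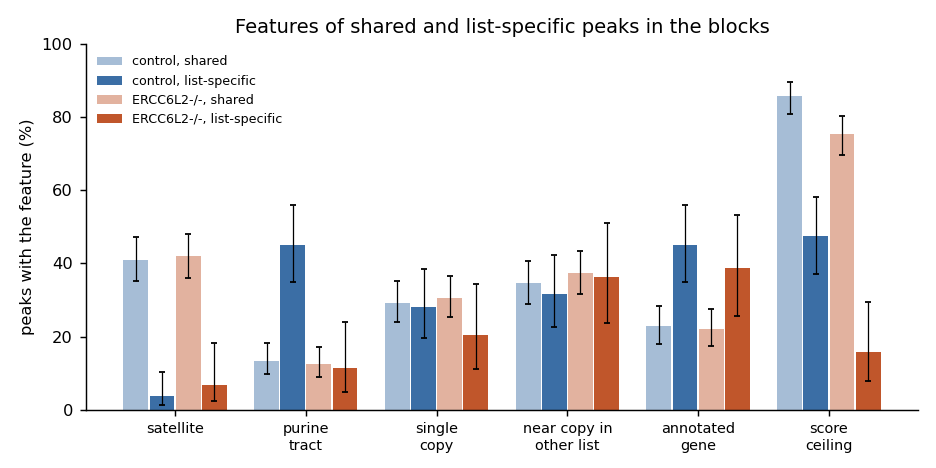
Share of peaks (%) with each feature among shared (pale) and list-specific (dark) peaks of the blocks, control in blue and ERCC6L2-/- in orange, with 95% Wilson intervals for counting error. Satellite is 41.1% and 42% of shared peaks, and the purine tract is 45.1% of control-specific against 11.4% of ERCC6L2-/- -specific peaks.

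A short stretch of alpha-satellite at the centromeric end of 9q held the largest cluster of ERCC6L2-/- -specific peaks. Between chr9:60562736 and chr9:60665781, in 103 kb beyond the 14.9 Mb gap and without protein-coding genes, lay 6 ERCC6L2-/- -specific peaks, and the ERCC6L2-/- list had 11 peaks there against 7 in the control list. All 6 held alpha-satellite and a CENP-B box, as in the sequence shown. Of 600-base windows of the blocks, taken over all kinds of sequence, 0.632% hold a box. Over all alpha-satellite of 9q the peaks numbered 8 in the control list (2 specific, 14.1 kb) and 12 in the ERCC6L2-/- list (6 specific, 17.6 kb), and each held a box. The same lead was present in alpha-satellite outside the blocks, where 102 of 526 control and 412 of 838 ERCC6L2-/- peaks were list-specific. It is thus not particular to 9q. The 6 specific ERCC6L2-/- peaks had scores of 85.7 to 191 and their 50-base words a median of 165 to 566 copies, so that reads from other copies can align there. One of the 2 specific control peaks was at the score ceiling and the other scored 284. The widest ERCC6L2-/- -specific peak there, at chr9:60568056-60569824, was covered at 95% identity or more over 100% of its length by a control peak at chr9:43615684-43617669, in the centromere between the 9p and 9q blocks.

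Repeated sequence was common in both sets of list-specific peaks, as it was in the shared peaks of the blocks. Single-copy DNA, in which at least 90% of 50-base words occur once in the reference, made up 9 of 44 ERCC6L2-/- -specific (20.5%, 11.2 to 34.5%) and 23 of 82 control-specific peaks (28%, 19.5 to 38.6%; Fisher's exact p = 0.397, adjusted p = 0.600). Outside the blocks these shares were 42.2% and 71.5%. Among shared peaks of the blocks, 30.6% in the ERCC6L2-/- list and 29.3% in the control list were in single-copy DNA. A near copy in the other list, at 95% identity or more over at least 50% of the peak by 1 peak elsewhere, was found for 16 of 44 ERCC6L2-/- -specific (36.4%, 23.8 to 51.1%) and 26 of 82 control-specific peaks (31.7%, 22.6 to 42.4%; Fisher's exact p = 0.692, adjusted p = 0.692). Of these near copies, 15 of 16 and 24 of 26 were themselves shared peaks. For such a peak the place is list-specific, while a similar sequence, over at least 50% of it, is in a peak of the other list. Shared peaks of the blocks had a near copy about as often, 37.3% in the ERCC6L2-/- list and 34.6% in the control list.

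An example is the AT-rich repeat of chromosome 9, where the control-specific peak at chr9:65207869-65210100 on 9q was covered over 100% of its length by the shared ERCC6L2-/- peak at chr9:40597887-40600820 on 9p. A stretch of 120 bases from each is shown, with the differing bases in capitals.
9q, control-specific, chr9:65208229-65208348: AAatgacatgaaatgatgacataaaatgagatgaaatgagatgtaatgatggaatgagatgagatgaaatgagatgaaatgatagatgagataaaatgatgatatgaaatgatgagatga
9p, shared, chr9:40599828-40599947: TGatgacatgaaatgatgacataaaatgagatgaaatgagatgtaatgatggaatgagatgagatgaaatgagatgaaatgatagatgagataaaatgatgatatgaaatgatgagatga
They differed at 2 of 120 bases.

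Annotated genes overlapped 37 of 82 control-specific (45.1%, 34.8 to 55.9%) and 17 of 44 ERCC6L2-/- -specific peaks (38.6%, 25.7 to 53.4%; Fisher's exact p = 0.572, adjusted p = 0.636), against 56 of 246 and 56 of 255 shared peaks (22.8% and 22%), among which satellite peaks were many. Protein-coding genes overlapped 15 and 8 list-specific peaks. In the control list 5 genes had 2 control-specific peaks each. GJA5, which encodes the gap junction protein connexin 40 (chr1:147756199-147773362), had 2 control peaks and no ERCC6L2-/- peak, 1 of them over an exon. KCNIP3, a potassium channel-interacting calcium sensor (chr2:95297327-95386077), had 3 control peaks and 1 ERCC6L2-/- peak, and both its specific peaks touched exons. NBPF12 and NBPF19, members of the duplicated neuroblastoma breakpoint family on 1q, and ENSG00000286185, a gene that spans NBPF19, made up the others.

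The family shows how duplication blurs such calls. NBPF19 had 2 control-specific peaks (between chr1:149525314 and chr1:149530738) and 1 ERCC6L2-/- -specific peak (chr1:149553776-149554357), whose words had a median of 57.5 and 58 copies, and NBPF11 had an ERCC6L2-/- -specific peak of 54 copies, so reads cannot be assigned firmly among the members. Single control-specific peaks lay in ALOX5 (5-lipoxygenase), H4C14 (a histone H4 gene), KANSL3 (a subunit of a histone acetyltransferase complex), LMAN2L (a lectin of the secretory pathway) and MAL (a membrane protein of T cells and myelin). Apart from MAL, which had 1 ERCC6L2-/- peak elsewhere in the gene, none of these 5 genes had an ERCC6L2-/- peak.

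Single ERCC6L2-/- -specific peaks lay in CNTNAP3B, FER1L5, GPRIN2, ITGAM (integrin alpha M), NBPF11, PDE4DIP (myomegalin, a Golgi and centrosome protein) and POLR1A (the largest subunit of RNA polymerase I), none of which had a control peak. The POLR1A peak (chr2:86041099-86041546, intronic) scored 302 and the ITGAM peak (chr16:31328348-31328985, intronic) 158, both in DNA with 1 copy. GPRIN2 and PDE4DIP peaks touched an exon.

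The list-specific peaks differed in score. In the blocks 39 of 82 control-specific peaks (47.6%, 37.1 to 58.2%) and 7 of 44 ERCC6L2-/- -specific peaks (15.9%, 7.93 to 29.4%) were at the score ceiling, against 45.3% and 31.2% outside. Among shared peaks it was 85.8% in the control and 75.3% in the ERCC6L2-/- list. Of the 82 control-specific peaks 47 lay in clusters of 2 or more (gaps of up to 100 kb), and the largest held 3 (chr2:96399289-96482875, where the ERCC6L2-/- list had no peak). Of the 44 ERCC6L2-/- -specific peaks 13 lay in such clusters, 6 of them in the 9q alpha-satellite. Another 3 lay in the GC-rich repeat of 2p at chr2:87406027-87430126, and the remaining clustered peaks included further ones of this repeat on 2p.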

How the data were processed

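The data were 4 peak lists of nascent DNA from 6 samples, for each genotype 1 of consensus peaks and 1 of those the other lacks. The authors trimmed reads with Trim Galore, aligned them to hg38 with Bowtie2, removed duplicates with Picard, called peaks in each sample with MACS2 and merged replicates with MSPC. Thresholds and the handling of reads with several best places are not given in the sources used here. The scores, as deposited by the authors, are -log10 values of the merged p-value, from 58 to 311 with larger ones written as infinite. They were used only to describe or filter peaks. Recomputed list-specific peaks equalled the deposited unique lists.

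Groups came from the genotype labels. Members, repeats and gene lists were chosen with earlier results of these data known. Sequences came from an hg38 reference (samtools 1.23.1, pysam 0.24.0), from which 47 contigs with 194 peaks were missing, none in the blocks, and genes from GENCODE release 44. Alpha-satellite was 1 kb windows with at least 50% identity to the sequence 171 bases downstream, in runs of at least 10 kb. Near copies were found with blastn 2.17.0 (word size 28, or 64 for satellite). Fisher's exact tests, two-sided and run in scipy 1.17.1, were adjusted by Benjamini-Hochberg over 10 comparisons, of which the 2 of satellite against other peaks were added after the peaks were seen. The alternatives changed the overlap rule, the block borders, the thresholds, the reference peaks and the counting of neighbours or near copies, or left out a chromosome. Intervals cover counting error only. The methods were tested on simulated sequences. The named items were the 3 widest peaks of each class, the 3 richest in satellite words, the largest clusters of list-specific peaks and up to 10 protein-coding genes a list. Of the clusters, those of equal size beyond the ones described are not named. The longest tract of a control-specific peak is not reported here.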

Additional observations from a re-analysis of the deposited data

How the results depend on the processing

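Values are differences in percentage points (first group minus second), by Fisher's exact test at an unadjusted threshold of 0.05, and the cause was not tested for any change. The purine tract difference passed with the same sign in 13 of 13 alternatives (-53.8 to -29.4). The control-specific share in the blocks against outside did so in 11 of 13, but was -0.0224 with chained peaks counted once and -4.95 without chromosome 16. The ERCC6L2-/- -specific share was past the threshold with a 1 kb gap (-5.21), at the score ceiling (-6.13), with borders moved out (-4.76), without chromosome 2 (-5.93) or 9 (-5.24) and against chromosomes 1 to 22 and X (-4.92), and turned with reciprocal overlap (0.106), chained peaks (1.66) and near copies counted once (1.59). The ERCC6L2-/- share of list-specific peaks was past the threshold with near copies counted once (9.75) and against peaks outside alpha-satellite (8.27), and turned at the ceiling (-9.52). Satellite among list-specific peaks passed with reciprocal overlap (12.1) and turned with a 25% limit (-1.22). At the ceiling single-copy DNA (2.93) and near copies (-21.6) turned, as did near copies counted once (-0.711) and genes without chromosome 2 (0.899). Satellite against other peaks lost the threshold with a 25% limit (-18.0 control, -15.5 ERCC6L2-/-) and, in the ERCC6L2-/- list, with chained peaks (-10.2).

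No paired analysis was possible because each list merges the 3 replicates of a genotype. Leaving out a replicate was not possible either. With 44 ERCC6L2-/- -specific peaks in the blocks, intervals ran as wide as 25.7 to 53.4%, and the unassembled DNA is out of reach.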
